A study of Mus musculus with 8 samples.

Results

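The activation arm of the rod phototransduction cascade was followed in the retina of wildtype (WT) and Lpcat1 knockout (KO) mice. Lpcat1 encodes lysophosphatidylcholine acyltransferase 1, an enzyme that makes saturated phosphatidylcholine. The 9 genes examined were the rod transducin subunits Gnat1, Gnb1 and Gngt1, the rod phosphodiesterase subunits Pde6a, Pde6b and Pde6g, the rod channel subunits Cnga1 and Cngb1, and the rod exchanger Slc24a1. They were chosen by name for their place in the cascade, and every array probe whose transcript accession RefSeq assigns to 1 of them was kept. This gave 10 probes of the 55681 on the array, or 9 genes of the 20018 that could be named, with 2 probes for Gnb1 and 1 for each other gene. Total RNA of whole retina at 2 weeks of age was compared between 4 Lpcat1 WT and 4 Lpcat1 KO samples of strain C57BL/6, each hybridised to 1 Agilent 1-colour array. The study made its KO line on C57BL6/N and crossed it with C57BL6/J to remove the retinal Crb1 mutation rd8, and used mice that were not homozygous for it. The deletion is in the whole animal, so it is present in every retinal cell type and in other organs. The labels do not say that the samples came from separate animals, and p-values here measure only the spread between samples. All arrays lay on 1 slide with WT in one row and KO in the other, so row and genotype cannot be told apart.

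Rods convert light into an electrical signal through a chain of protein contacts on the disc membrane and a channel in the plasma membrane. The light-activated visual pigment makes the transducin α subunit exchange GDP for GTP and leave its βγ partner, and the freed α subunit relieves the inhibition of a cGMP phosphodiesterase. The fall in cGMP closes a cation channel, while an exchanger bound to that channel goes on removing calcium from the outer segment. Cones run the same chain with their own subunits, which allows each rod gene to be set beside a cone counterpart.

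Promoter sequence is shown for the gene whose probe passed the test, for the 2 channel subunits, whose probes differed between genotypes by similar amounts, and for their exchanger partner, whose probe did not separate the genotypes. The RefSeq promoter windows used, on GRCm38.p6, covered 6 of the 9 genes. For cascade and cone genes, windows on 1 chromosome were left out, which was not done for the count over all windows below. Each line holds the 250 bases before the annotated start, written 5′ to 3′ on the strand of the gene, with capitals marking matches on either strand to the CRX motif TAATCC, the NRL core motif TGCTGA or the nuclear receptor motif AGGTCA. The windows are chr4:155491111-155491360 on the plus strand for Gnb1, and on the minus strand chr5:72642753-72643002 for Cnga1, chr8:95306586-95306835 for Cngb1 and chr9:64951621-64951870 for Slc24a1.
Gnb1: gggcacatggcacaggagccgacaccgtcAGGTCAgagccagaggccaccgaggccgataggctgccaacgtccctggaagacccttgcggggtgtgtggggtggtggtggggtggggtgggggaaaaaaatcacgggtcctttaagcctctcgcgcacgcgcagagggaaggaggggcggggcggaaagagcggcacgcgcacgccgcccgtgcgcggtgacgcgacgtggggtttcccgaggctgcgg
Cnga1: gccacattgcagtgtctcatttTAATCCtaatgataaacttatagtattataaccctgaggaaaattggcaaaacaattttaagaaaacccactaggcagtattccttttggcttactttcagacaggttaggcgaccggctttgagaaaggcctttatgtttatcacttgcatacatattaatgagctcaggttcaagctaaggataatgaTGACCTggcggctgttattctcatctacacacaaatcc
Cngb1: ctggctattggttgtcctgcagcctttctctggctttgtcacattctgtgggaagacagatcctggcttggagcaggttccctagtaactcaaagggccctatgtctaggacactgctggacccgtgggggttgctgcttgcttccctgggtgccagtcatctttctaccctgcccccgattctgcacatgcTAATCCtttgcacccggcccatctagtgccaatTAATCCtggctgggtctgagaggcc
Slc24a1: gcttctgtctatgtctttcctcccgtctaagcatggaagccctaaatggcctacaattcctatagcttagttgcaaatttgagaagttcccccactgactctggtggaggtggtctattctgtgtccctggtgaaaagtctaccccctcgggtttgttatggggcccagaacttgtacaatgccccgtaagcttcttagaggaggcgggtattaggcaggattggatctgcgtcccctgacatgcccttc
CRX is a homeodomain factor of both photoreceptor types, NRL a leucine zipper factor that directs the rod fate, and AGGTCA a letter pattern read by many nuclear receptors. The capitals in Cngb1 are 2 CRX matches, at bases -58 to -53 and -25 to -20 before the start. Cnga1 holds 1 CRX match at -228 to -223 and 1 nuclear receptor motif at -38 to -33 on the opposite strand, and Gnb1 holds 1 such motif at -221 to -216. In the Slc24a1 window none of the 3 letter patterns was found. Of the 6 windows, 3 held the CRX motif (Gngt1, Cnga1 and Cngb1), which 6.25% of 32851 promoter windows of this length hold. The NRL motif was in 1 window (Pde6b) against 16.1% of all windows, and the nuclear receptor motif in 2 (Gnb1 and Cnga1) against 14.02%. No matches overlapped in these 6 windows. The matches describe letters and were not tested for binding.

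Levels are log2 of the processed signal minus the 75th percentile of the same array, so 1 unit is a doubling, and a difference is KO minus WT on that scale. A probe was called changed when its limma p, adjusted by Benjamini-Hochberg over all 33972 probes tested, was under 0.05 and its fold change was over 1.2. By this rule 1.54% of tested probes were called lower in KO and 1.38% higher, or 2.92% in either direction. All 10 cascade probes were well above background on all 8 arrays, none was saturated, and all 10 were tested. Of these, 1 was called lower, the brighter Gnb1 probe, and 0 were called higher. Before the fold limit, 5 were lower at an adjusted p under 0.05, against 3.30% of all tested probes, and 6 were lower at an unadjusted p under 0.05, against 15.6%. In the 14 other settings that kept all arrays, the adjusted p was under 0.05 in 14 for the brighter Gnb1 probe and 9 for the other. It was so in 10 for Pde6g, 10 for Cnga1 and 6 for Cngb1. The differences lay below 0 for 8 of the 10 probes, with a median over the 9 genes of -0.19. On 7 of the 10 probes every KO array lay below every WT array, which was so for 11.4% of all tested probes, and on 0 of the 10 did every KO array lie above every WT array, against 6.04% of all tested probes. The median over all tested probes was -0.04 and 62.0% were below 0. Among the 3684 other probes whose mean level lay in the range of the cascade probes (3.23 to 8.39), the median was -0.06, 73.9% were below 0, and 1.38% were called lower. Because the retina was measured as a whole, fewer rods and less RNA per rod cannot be told apart in any of these values.

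The targeted gene itself was lower in KO by the same rule, with a Lpcat1 level of -0.41 ± 0.03 in WT and -0.87 ± 0.06 in KO (mean of 4 arrays ± SD), a difference of -0.46 (SE 0.04, limma adjusted p = 0.0036). Where this probe lies relative to the deletion was not settled, and the signal left in KO is not a measure of intact transcript. Between 33110 and 36366 probes were well above background on an array, and the signal at the 75th percentile ran from 638 to 738. The number of arrays, 4 a genotype, limits precision.

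The transducin subunits spanned differences from -0.30 to 0.06, the widest range of the 3 complexes. Gnat1, the α subunit that carries the signal to the phosphodiesterase, read 8.19, 8.16, 8.25 and 8.14 on WT arrays 1 to 4 and 8.14, 8.09, 8.18 and 8.17 on KO arrays 1 to 4. The genotypes overlapped, and the difference was -0.04 (SE 0.04, 95% interval -0.13 to 0.05, limma adjusted p = 0.604). That interval leaves room for a KO signal between 91.2 and 103.9% of WT.

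Gnb1, the β subunit, which serves G proteins of many cell types besides rods, read 6.10, 6.11, 6.17 and 6.10 in WT and 5.86, 5.80, 5.86 and 5.79 in KO on its brighter probe. All 4 KO values lay below all WT values with a wide gap. The probe fell by 0.30 on the log2 scale (SE 0.04, limma adjusted p = 0.0097), which put the KO signal at 81.5% of WT (95% interval 76.8 to 86.5). The call was kept in each of the 8 fits that left out 1 array. Under quantile normalization the difference was -0.21 (adjusted p = 0.019) and under cyclic loess -0.23 (adjusted p = 0.016), which is below the fold limit. On the other Gnb1 probe the levels were 5.58, 5.55, 5.60 and 5.66 in WT and 5.37, 5.38, 5.45 and 5.34 in KO. Here too no values overlapped, and the difference of -0.21 (SE 0.04, limma adjusted p = 0.028) was of the same sign and under 1.2-fold. The adjusted p of this probe was 0.05 or more in 6 of the 8 fits that left out 1 array, and 0.081 at most, without KO replicate 2. Under quantile normalization its difference was -0.13 (adjusted p = 0.094) and under cyclic loess -0.15 (adjusted p = 0.059).

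Gngt1, the γ subunit of rod transducin, had the largest spread of the 10 probes, with an SD of 0.11 in WT and 0.13 in KO. WT levels were 6.93, 6.70, 6.72 and 6.75, and KO levels 6.80, 7.003, 6.86 and 6.68. WT replicate 1 and KO replicate 2 stood highest and the genotypes overlapped. The difference of 0.06 had an interval from -0.12 to 0.24 (SE 0.08, limma adjusted p = 0.692), so a change of the size seen for the brighter Gnb1 probe lay outside the interval on the lower side.

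The phosphodiesterase subunits spanned a smaller range of differences. Pde6a, the catalytic α subunit, read 6.40, 6.42, 6.43 and 6.41 in WT and 6.32, 6.37, 6.37 and 6.37 in KO. The KO values lay just below the WT values without overlap, and WT replicates were closer to each other (SD 0.01) than for any other cascade probe. Its difference was -0.06 (SE 0.03, interval -0.13 to 0.02) and did not pass the test (limma adjusted p = 0.329). Pde6b, the catalytic β subunit, read 5.57, 5.61, 5.67 and 5.75 in WT and 5.33, 5.42, 5.50 and 5.56 in KO. The highest KO array came within 0.01 of the lowest WT array. The difference of -0.19 had an interval of -0.34 to -0.05 and missed the threshold after adjustment (SE 0.06, limma adjusted p = 0.109), and it shrank to -0.11 under quantile normalization and -0.13 under cyclic loess.

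Pde6g, the γ subunit that inhibits the catalytic pair in the dark, read 8.52, 8.52, 8.54 and 8.45 in WT and 8.32, 8.23, 8.29 and 8.24 in KO. Every KO array lay below every WT array. Its difference of -0.24 (SE 0.04, limma adjusted p = 0.020) placed KO at 84.8% of WT (interval 79.7 to 90.2), which did not reach the fold limit. Leaving out 1 array at a time gave an adjusted p of 0.05 or more in 5 of 8 fits, with the highest value of 0.066 without WT replicate 2. The difference shrank to -0.13 under quantile normalization (adjusted p = 0.089) and -0.14 under cyclic loess (adjusted p = 0.085).

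The channel subunits gave closely similar differences. Cnga1, the pore-forming α subunit of the rod cGMP-gated channel, read 6.17, 6.17, 6.25 and 6.25 in WT and 5.99, 5.95, 6.00 and 5.94 in KO. The groups were apart by more than the spread within either. Its difference was -0.24 (SE 0.04, limma adjusted p = 0.020), or 84.6% of the WT signal. Cngb1, the β subunit, read 7.22, 7.22, 7.24 and 7.16 in WT and 7.09, 6.99, 6.97 and 6.86 in KO. KO replicates were spread more widely than WT replicates (SD 0.09 against 0.04), with KO replicate 1 closest to WT and KO replicate 4 farthest. The difference of -0.23 (SE 0.05, limma adjusted p = 0.043) put KO at 85.0% of WT, again under 1.2-fold. Without KO replicate 1 the Cngb1 difference was -0.27 (adjusted p = 0.031) and the probe was called. In the 7 other fits that left out 1 array its adjusted p was 0.05 or more, up to 0.113 without WT replicate 2, and for Cnga1 this was so in 5 of 8 fits, up to 0.064 without KO replicate 2. Scaling moved Cngb1 to -0.13 under quantile normalization (adjusted p = 0.177) and -0.15 under cyclic loess (adjusted p = 0.154), and its adjusted p was under 0.05 in 6 of the 14 settings that kept all arrays. For Cnga1 the same scalings gave -0.16 (adjusted p = 0.062) and -0.17 (adjusted p = 0.039).

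Slc24a1, the sodium, calcium and potassium exchanger that sits with the channel in the rod outer segment, read 3.18, 3.23, 3.24 and 3.26 in WT and 3.19, 3.26, 3.23 and 3.28 in KO. The genotypes overlapped almost wholly. The difference was 0.01 (SE 0.04) with a limma adjusted p of 0.850, and its interval of -0.07 to 0.10 did not reach the differences of the channel subunits.

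**Figure D1:**
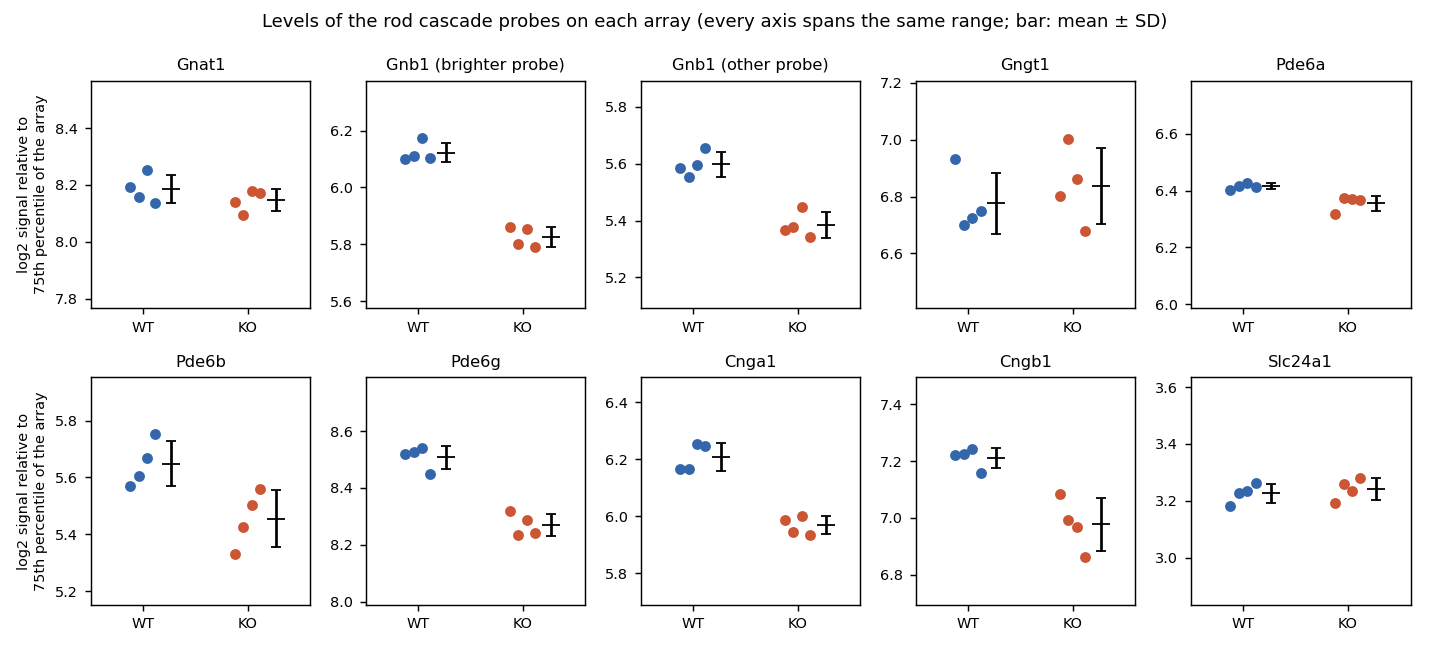
Level of each cascade probe on each array (vertical axis, log2 signal relative to the array's 75th percentile; every panel spans the same range) for 4 WT (blue) and 4 KO (orange) retinas, with the mean and SD of each group as a bar. The KO points lie wholly below the WT points for both Gnb1 probes, Pde6a, Pde6b, Pde6g, Cnga1 and Cngb1, and overlap with them for Gnat1, Gngt1 and Slc24a1.

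No array was highest or lowest throughout. WT replicate 3 was the highest WT array for 6 of the 9 genes and WT replicate 1 the lowest for 5, and in KO the lowest array was replicate 4 for 4 genes and replicate 1 for 3. With each gene centred on its own mean and the 9 genes averaged, the WT arrays lay between 0.05 and 0.09 and the KO arrays between -0.09 and -0.05. The scaling did matter to the count of genes without overlap. Of the 6 genes whose KO arrays all lay below the WT arrays (Gnb1, Pde6a, Pde6b, Pde6g, Cnga1 and Cngb1), 3 were left under quantile normalization and under cyclic loess (Gnb1, Pde6g and Cnga1 in both), 4 under a median shift, and 5 under normexp background correction, the authors' own values and the 75th percentile of detected probes. Gnat1 and Pde6a changed sign under both quantile normalization (0.09 and 0.02) and cyclic loess (0.06 and 0.02), and under quantile normalization every KO array lay above every WT array for Gnat1.

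**Figure D2:**
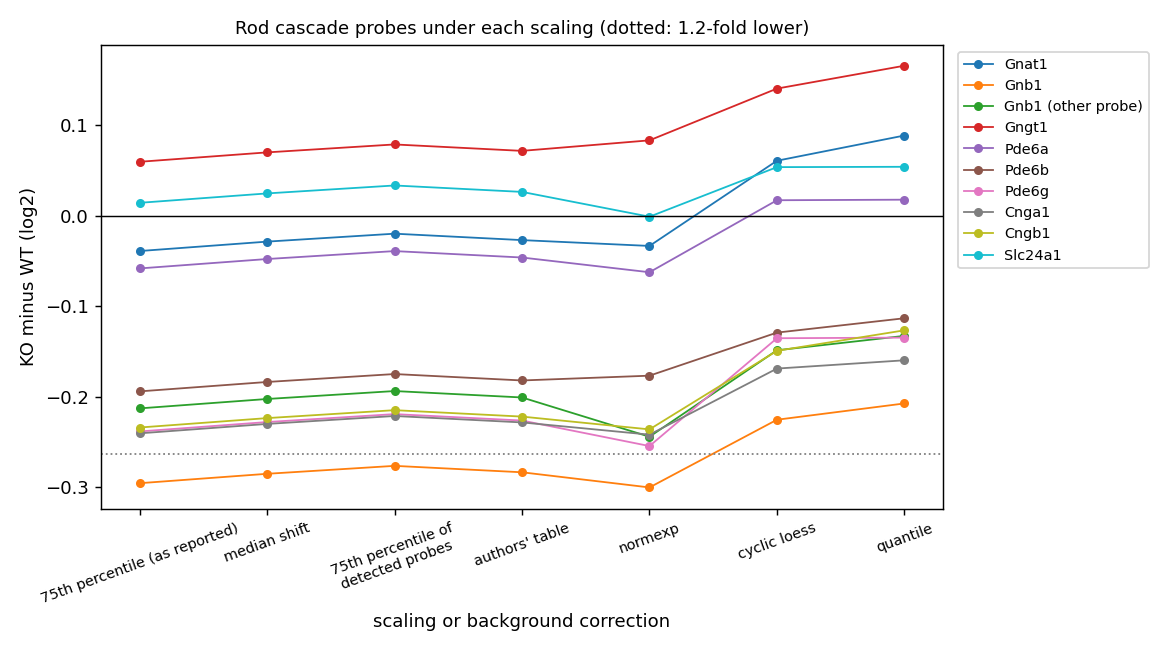
Difference KO minus WT (vertical axis, log2) of each cascade probe under the reported scaling and 6 other scalings or background corrections (horizontal axis), with a dotted line at 1.2-fold lower. The probes keep nearly the same order throughout, all move up under cyclic loess and quantile normalization, and the brighter Gnb1 probe crosses the dotted line there, from -0.30 to -0.23 and -0.21.

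Subunits of the same complex were then compared directly, by taking the difference between 2 subunits within each array, which removes the scaling of the array by a constant. The channel and its exchanger partner were treated as 1 group for this purpose, giving 9 pairs. A two-sided exact permutation test on 4 against 4 arrays cannot go below p = 0.0286, and with 9 pairs at least 6 would have to reach that value for any to pass adjustment. In fact 5 pairs reached it, so 0 of 9 passed (adjusted p = 0.0514 for each of the 5). A pair reaches it only when the genotypes do not overlap, and the share of such pairs over all genes was not counted. Within transducin, the excess of Gnat1 over Gnb1 was larger in KO by 0.26 (SE 0.03), without overlap between genotypes. Gnb1 relative to Gngt1 was lower in KO by 0.36 (difference -0.36, SE 0.09), also without overlap. The ratio of Gnat1 to Gngt1 overlapped between genotypes (difference -0.10, SE 0.10, exact permutation p = 0.400).

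In the phosphodiesterase, Pde6a relative to Pde6g was higher in KO by 0.18 (SE 0.04) with no overlap. Pde6a relative to Pde6b differed by 0.14 (SE 0.06, exact permutation p = 0.0857) and overlapped. The difference for Pde6b relative to Pde6g was 0.04 (SE 0.09, exact permutation p = 0.600). Cnga1 relative to Cngb1 moved least of the 9 pairs, with a difference of -0.01 (SE 0.05, exact permutation p = 0.914). Both channel subunits were lower relative to Slc24a1 without overlap, Cnga1 by a difference of -0.25 (SE 0.04) and Cngb1 by -0.25 (SE 0.07).

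The same comparison was made between each rod gene and its cone counterpart. Of the 9 rod-cone pairs, 7 differed between genotypes (exact permutation p = 0.0286, adjusted p = 0.0367 for each). All 7 had the rod gene lower relative to the cone gene in KO, and all 9 differences were below 0. This p means that the genotypes did not overlap. How often that happens among pairs drawn from all genes was not counted, so how unusual 7 of 9 is cannot be told. For the channel, Cnga1 minus Cnga3 differed by -0.44 (SE 0.05) and Cngb1 minus Cngb3 by -0.41 (SE 0.05). In the phosphodiesterase the differences were -0.39 (SE 0.06) for Pde6b minus Pde6c, -0.35 (SE 0.05) for Pde6g minus Pde6h and -0.26 (SE 0.02) for Pde6a minus Pde6c. The transducin α pair, Gnat1 minus Gnat2, differed by -0.27 (SE 0.05) and the β pair, Gnb1 minus Gnb3, by -0.32 (SE 0.05), so Gnat1 was lower relative to its cone counterpart although its own level did not separate the genotypes. The exceptions were Gngt1 minus Gngt2 (difference -0.02, SE 0.09, adjusted exact permutation p = 0.83) and Slc24a1 minus Slc24a2 (difference -0.09, SE 0.05, adjusted exact permutation p = 0.257). The count of 7 held under the other scalings and was 8 when a gene's probes were averaged, where Slc24a1 minus Slc24a2 became -0.22 (adjusted exact permutation p = 0.032). Pde6c enters 2 pairs, and all 9 pairs rest on the same 8 arrays.

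**Figure D3:**
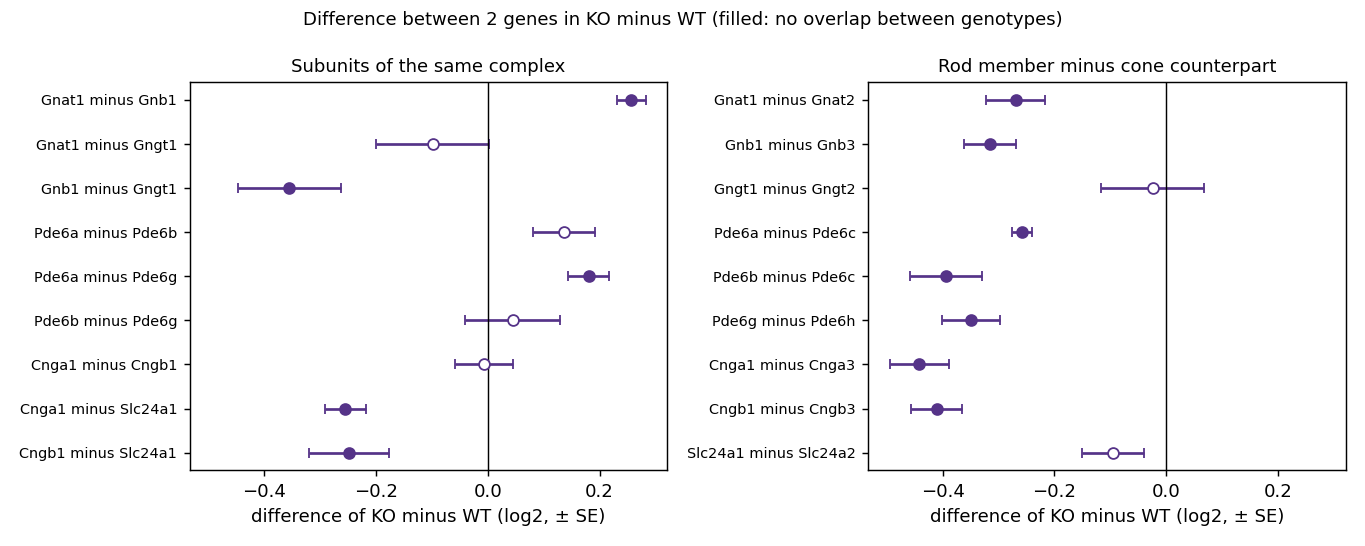
Change of the difference between 2 genes from WT to KO (horizontal axis, log2, point ± SE, 4 arrays per genotype) for 9 pairs within the rod complexes (left) and 9 rod-cone pairs (right); filled points mark pairs whose KO and WT arrays do not overlap. Cnga1 minus Cngb1 lies at -0.01, Gnb1 minus Gngt1 at -0.36, and 7 of the 9 rod-cone pairs are filled and lie between -0.44 and -0.26.

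Gene by gene, the cone counterparts lay above 0 in 8 of 8, with a median of 0.14. A gene was counted as called when 1 of its probes was called, which happened in the higher direction for 2.20% and in the lower direction for 1.77% of 14939 genes. By this count 1 of the 8 counterparts was higher, Slc24a2, the exchanger gene set beside Slc24a1. Its call came through a dim probe (0.41, SE 0.08, limma adjusted p = 0.033), while its brightest probe gave 0.11 (SE 0.05). Whether its signal in whole retina came from cones was not tested. This count of cone genes depended on the setting. It was 3 under quantile normalization, 2 under cyclic loess, 5 with no minimum fold and 0 under normexp, the t-test named in the methods or no filter on dim probes. With 1 array left out it was 1 without KO replicate 1 and 0 in each of the 7 other fits. Gnat2, cone transducin α, read 4.998, 5.04, 4.90 and 4.96 in WT and 5.16, 5.21, 5.24 and 5.21 in KO. These did not overlap, and the difference of 0.23 (SE 0.04, limma adjusted p = 0.026) was under 1.2-fold. Pde6c, the cone catalytic subunit, gave 0.20 (SE 0.04, limma adjusted p = 0.029) on its brighter probe and 0.14 on the other. Pde6h, the cone inhibitory subunit, gave 0.11 and 0.17 on 2 probes. Differences for the cone channel were 0.20 (SE 0.05) for Cnga3 and 0.18 (SE 0.04) for Cngb3. Gnb3, the cone β subunit that ON bipolar cells also use, and Gngt2, the cone γ subunit, were at 0.02 (SE 0.04) and 0.08 (SE 0.04), the latter without overlap between genotypes.

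**Figure D4:**
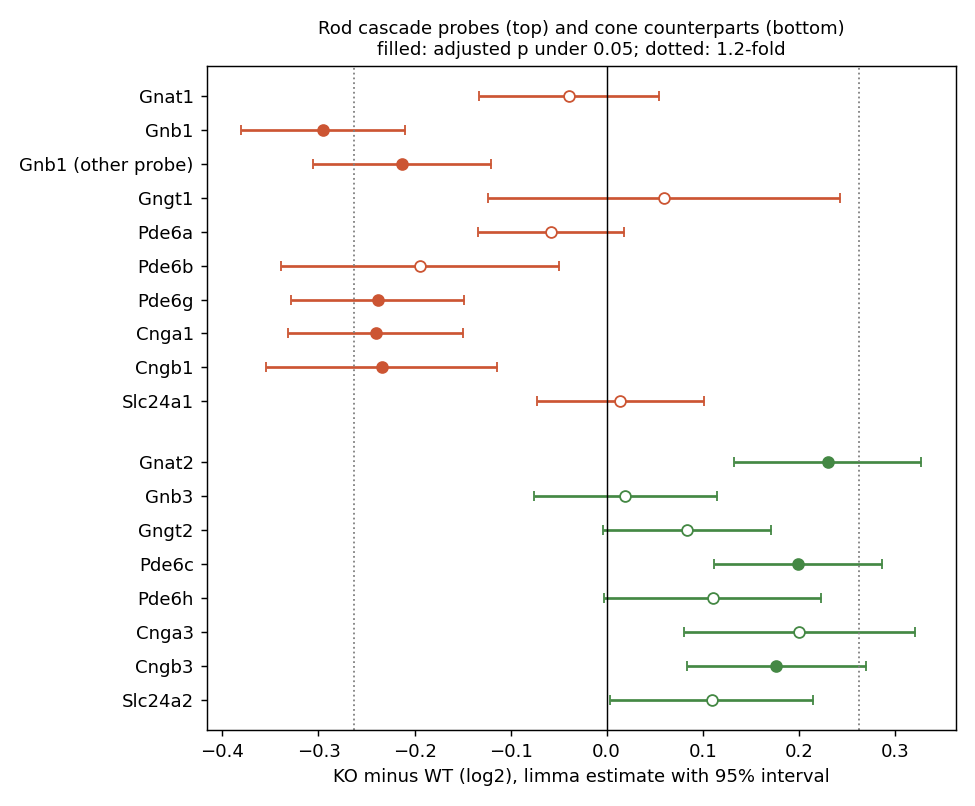
Difference KO minus WT (horizontal axis, log2) with the 95% interval of limma for the 10 rod cascade probes (top, orange) and the brightest probe of each of 8 cone counterparts (bottom, green); filled points have an adjusted p under 0.05 and dotted lines mark 1.2-fold. The brighter Gnb1 probe at -0.30 is the only point past a dotted line, and the 8 cone points lie between 0.02 and 0.23.

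Genes that end the light response and restore cGMP were lower in 2 of 11 and higher in 0 of 11, with 8 of 11 differences below 0 and a median of -0.14, against -0.02 over all 14939 genes. Sag, rod arrestin, which quenches the activated pigment, fell by 0.36 on the log2 scale (SE 0.04, limma adjusted p = 0.0051). Gucy2e, a retinal guanylate cyclase, fell by 0.30 and 0.33 on 2 probes and gave -0.14 on its brightest. The lower count of this list was 1 under quantile normalization and with no filter on dim probes, 3 with no minimum fold and 0 at a minimum of 1.5-fold, the higher count was 1 under cyclic loess and with trend and robust eBayes, and with 1 array left out neither count moved in any of the 8 fits. The list drawn up for assembly and transport of the cascade proteins had 1 of 14 genes lower and 0 higher. Of the 14, 13 were below 0, with a median of -0.11. The only gene called was Ankrd33, a photoreceptor ankyrin repeat gene, at -0.31 (SE 0.04) and -0.38 (SE 0.04) on its 2 probes. Its place in assembly or transport was assumed and not tested. The count of lower genes in this list was 3 with no minimum fold and 0 at 1.5-fold. Of 15 other rod genes 4 were lower and 1 higher, with 12 below 0 and a median of -0.15. Nr2e3, the nuclear receptor that represses cone genes in rods, fell by 0.50 (SE 0.08), the retinol dehydrogenase Rdh12 by 0.38 (SE 0.06) and Fam161a, which encodes a ciliary protein, by 0.29 (SE 0.04). The disc rim gene Prph2 fell by 0.28 (SE 0.05) on 1 probe, and its brightest probe gave -0.26 (SE 0.10, limma adjusted p = 0.167). Mef2c, a transcription factor, rose by 0.31 (SE 0.06). The 4 lower calls of this list became 2 under cyclic loess, 1 with no filter on dim probes and 7 with no minimum fold. They became 0 with the replicate number as a block or at a minimum of 1.5-fold. With 1 array left out they numbered 1 (without WT replicate 2, KO replicate 2 or KO replicate 4) to 4 (without KO replicate 1), with 2 without WT replicate 1, 3 or 4, and the count of 1 higher gene was 0 except without KO replicate 3. That higher count was also 0 under normexp, with no filter on dim probes and by the t-test named in the methods. The cascade's 9 genes had the lowest median of these 4 lists, but the 5 rod markers given below had a lower one (-0.26). The lists were not tested against each other.

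Markers of the retinal cell types were measured beside these results. Some belong to the lists above (among them Sag, Nr2e3 and Prph2 for rods, Gnat2 and Pde6h for cones), so these are not a separate check. All 5 rod markers were detected and 3 were called lower (Nr2e3, Sag and Prph2), with a median of -0.26. Summed as the mean of centred levels, they ran from 0.11 to 0.18 in WT and from -0.24 to -0.06 in KO. Sag alone of these was called with no filter on dim probes and when WT replicate 1, 2, 3 or 4 or KO replicate 2 or 4 was left out, was called with Nrl without KO replicate 3, and was not called under quantile normalization, where Nr2e3 was the 1 rod marker left. Without KO replicate 1 the same 3 were called. Of the 4 cone markers 2 were called higher, cone arrestin Arr3 (0.46, SE 0.04) and the short-wave opsin Opn1sw (0.43, SE 0.09), and the list ran from -0.18 to -0.12 in WT and from 0.10 to 0.23 in KO. Without 1 array Arr3 kept its call in all 8 fits and Opn1sw only without KO replicate 1. Microglia markers were higher in 3 of 5, namely Tyrobp (0.65), C1qb (0.54) and C1qa (0.50), and ran from -0.28 to -0.15 in WT and from 0.16 to 0.25 in KO. The C1qa call was lost without WT replicate 3 or KO replicate 2, 3 or 4. Called genes numbered 0 of 4 for each of bipolar cells (median 0.07), amacrine and horizontal cells (0.13), ganglion cells (0.00) and Müller glia (0.15). Even so, the sums did not overlap between genotypes for Müller glia, from -0.11 to -0.03 in WT and 0.05 to 0.10 in KO, or for bipolar cells, from -0.07 to -0.01 in WT and 0.01 to 0.06 in KO. Markers of tissue next to the retina were called in 0 of 3 tested for the pigment epithelium, 0 of 2 for lens and 0 of 2 for blood, and their sums overlapped between genotypes. The part of these shifts in the cascade's differences was not tested.

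The genes whose pattern over the 8 arrays was most like the mean of the 9 cascade genes were Tmsb15b2 (Pearson's r 0.998), Cyb5r4 (0.992), Dctpp1 (0.992), Ndufa13 (0.991) and Dynlrb2 (0.990), of 14920 genes compared. Their own differences were -0.26, -0.16, -0.20, -0.08 and -0.66, of which the last was called. These values are a description over 8 arrays that fall into 2 genotypes, and 551 genes had r over 0.9.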

How the data were processed

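Whole-retina total RNA from 4 WT and 4 KO samples was measured, with group and number taken from the labels. Each sample was hybridised by the authors in 1 colour to an Agilent mouse array, which they read with Feature Extraction 10.7.1.1. The scanner files they deposited give intensity for 62976 spots on a linear scale, background-subtracted and unscaled between arrays. The deposited value table holds the authors' log2 values after a 75th percentile shift. It differed from the levels used here by a constant of 0.12 to 0.15 per array and served as an alternative. Columns of samples left unused numbered 0.

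The level of a spot was log2 of its processed signal, less the 75th percentile of that array over 59305 non-control spots. Outlier spots (86 to 147 per array) and control spots were omitted, and repeated spots averaged. A probe was tested when well above background on all 4 arrays of a genotype (33972 probes). Symbols came from RefSeq by transcript accession, for 26413 probes. That table's assembly (GRCm38) differs from the array design's (mm9), so it gave names only. The brightest probe stood for a gene, and other probes are given for some named genes only. Rgs9, of the shut-off list, counted as below 0 by its brightest probe (-0.22). Its other probes gave 0.18 and 0.17, each with every KO array above every WT array. KO and WT were fitted by limma 3.58.1 (lmFit, eBayes; R 4.3.3) with genotype as the only term, and p-values were adjusted by Benjamini-Hochberg over every tested probe. The 2 genes of a pair were compared by exact permutation over samples, two-sided.

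The members, lists and tests were chosen with earlier results of these data known. Named genes were the members, their cone counterparts, up to 5 called genes of each list and the 5 genes most like the members' mean profile. Rgs9 was named only because its probes disagree. Promoter sequences and coordinates came from RefSeq windows on GRCm38.p6. Probe positions within transcripts were not used here.

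Alternatives were quantile normalization, cyclic loess, a median shift, the 75th percentile of detected probes, normexp (offset 50, on median spot signals), other filters and thresholds, the methods' t-test with the same adjustment, limma with trend and robust eBayes, the replicate number as a block, outlier spots kept, averaging a gene's probes, and omitting each array in turn. On simulated data for KO against WT (33950 probes), limma called 13 of 67 probes changed by 0.3, 46 of 67 by 0.5 and 55 of 66 by 1 on the log2 scale, all in the right direction, and 11 unchanged probes. Only these probes were changed, fewer than were called in the data. The adjustment is stricter when fewer probes change, so recovery in the data can differ.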

Additional observations from a re-analysis of the deposited data

Results flagged for a closer look

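Within a genotype, 3 single values stood far from the other 3 arrays by Dixon's test, of 44 groups of 4 arrays examined, where chance gives about 1 in 20. The brighter Gnb1 probe read 6.172 in WT replicate 3, above the next WT value of 6.11. Pde6a read 6.317 in KO replicate 1, below the next KO value of 6.367. The cone channel gene Cnga3 read 0.3826 in KO replicate 2, above the next KO value of 0.2349. Each lay farther from the other genotype than its neighbours did.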

How the results depend on the processing

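The median difference over the 9 genes stayed below 0 in every setting, at -0.113 under quantile normalization, -0.129 under cyclic loess, -0.175 with the 75th percentile of detected probes and -0.177 under normexp, and from -0.221 to -0.152 when 1 array was left out. Called cascade probes numbered 0 under quantile normalization, cyclic loess and a minimum fold of 1.5, 5 with no minimum fold, and 1 to 2 with 1 array left out. Signs turned for probes that were not called: Gnat1 to 0.089 (quantile) and 0.061 (cyclic loess), Pde6a to 0.018 and 0.017, and Slc24a1 to -0.00102 under normexp. When 1 array was left out, Slc24a1 ran from -0.00084 (without WT replicate 1) to 0.0312.

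Of all tested probes 992 were called, 246 with no filter on dim probes, 1869 with no minimum fold, 138 at 1.5-fold, and 391 (without WT replicate 2) to 1182 (without KO replicate 1) with 1 array left out. The share called higher was 47.4%, against 60.2% with the 75th percentile of detected probes and 64.8% under cyclic loess. The 4 pathway lists besides the cascade held 9 called genes, 3 with no filter, 19 with no minimum fold, 0 at 1.5-fold, and 4 to 8 with 1 array left out. Pairs within complexes numbered 0 of 9 past the threshold in all 8 alternatives run, and rod-cone pairs 7 to 8. Leaving out an array gave pairs no test, since 3 against 4 arrays cannot go below an exact permutation p of 0.0571.

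Whether replicate numbers paired the samples was not settled. Deviations at the same number correlated by 0.04 to 0.25, and 3 of 4 WT replicates were best with their own number. With the replicate block 395 probes, 1 cascade probe and 3 genes of the lists were called (0 of them cone counterparts or other rod genes), Sag was the 1 rod marker and Arr3 the 1 cone marker called, and the brighter Gnb1 probe had an adjusted p of 0.046 in limma. The causes of these shifts were not tested.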
